A study of Mus musculus with 2 samples.

Results

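Let-7 microRNAs whose mature form comes from a single hairpin gene were described in small RNA sequencing of mouse left cerebral cortex. The members were taken by gene symbol from a fixed list: Mirlet7b, Mirlet7d, Mirlet7e, Mirlet7g, Mirlet7i and Mir98, that is 6 of the 2202 microRNA genes in the count tables. A gene here is a hairpin, the folded precursor from which a 5p arm and a 3p arm can be cut, and its count does not separate the arms. The tissue came from male B6CASTF1/J mice, an F1 hybrid strain, at 14 days of age, and the labels give no treatment. There were 2 libraries of this 1 group, replicates 1 and 2 of short RNAs from total RNA, with the same donor label and separate tissue records. The labels speak of several males and do not say whether RNA was pooled or whether the libraries came from separate animals, so the SDs measure the spread between these libraries, which may be technical. With 1 group there is no comparison between conditions, and 2 libraries cannot reach significance in an exact test over samples (the smallest two-sided p of a sign-flip test is 0.5).

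Let-7 is a family of small RNAs that guide Argonaute proteins to messenger RNAs through the seed, bases 2 to 8 of the mature form. Its levels are known to rise as neural progenitors leave the cell cycle and differentiate, and its best known targets include Lin28a, Hmga2 and the Ras genes. The RNA-binding proteins LIN28A and LIN28B hold back let-7 in undifferentiated cells: their zinc knuckles bind the bases GGAG in the stretch between the arms. Binding by LIN28A leads to uridylation and decay of the precursor.

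The 5p sequences are shown first, since the seed defines the family and the remaining bases decide which gene a read can be given to. They are from RefSeq (GRCm38.p6), 5′ to 3′, with the seed in capitals.
let-7b-5p: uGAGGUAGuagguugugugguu
let-7d-5p: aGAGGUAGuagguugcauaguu
let-7e-5p: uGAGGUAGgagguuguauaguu
let-7g-5p: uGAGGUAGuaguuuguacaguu
let-7i-5p: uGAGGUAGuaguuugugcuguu
miR-98-5p: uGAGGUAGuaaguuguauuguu
For comparison, the 5p forms that are encoded by 2 hairpin genes each are those of let-7a, let-7c and let-7f.
let-7a-5p: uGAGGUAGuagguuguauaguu
let-7c-5p: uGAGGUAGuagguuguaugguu
let-7f-5p: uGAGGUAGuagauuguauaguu

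All 6 members carried the same seed, GAGGUAG, which 13 of the 1738 mature entries of the RefSeq table hold at bases 2 to 8. These entries include miR-1961, which was not on the lists of genes used here. The 6 sequences were 22 bases long and identical at 14 positions, and they varied at positions 1, 9, 11, 12, 16, 17, 18 and 19, counted from the 5′ end. Against let-7a-5p as reference, let-7e-5p differed by U9G alone. The form let-7b-5p differed by A17G and A19G, let-7d-5p by U1A and U16C, let-7g-5p by G12U and U18C, and miR-98-5p by G11A and A19U. The form let-7i-5p differed by 4 substitutions, G12U, A17G, U18C and A19U. Within the group, let-7g-5p and let-7i-5p were the closest pair, with 20 of 22 bases alike, and let-7d-5p and let-7i-5p the farthest, with 16 of 22.

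Each full 5p and 3p sequence of the 6 members occurred in 1 hairpin of the 2202 on the sequenced strand. The 5p sequences of let-7a, let-7c and let-7f each occurred in 2. Beyond their own hairpin, the members' 5p sequences were found on the same strand only in transcripts of the genes that contain that hairpin, among all transcripts of GENCODE M21. Introns and intergenic sequence were not searched, as no genome sequence was used. A perfect match does not make a count complete, since several forms are 1 substitution apart: let-7b-5p from let-7c-5p and let-7e-5p from let-7a-5p. The longest run that a member's 5p form shares with another of the 9 forms was 16 bases for let-7b, let-7g and let-7i, 14 for let-7d, 13 for let-7e and 10 for miR-98. Over whole hairpins, a stretch of 18 bases was shared between Mirlet7g and Mirlet7i and between Mirlet7b and Mirlet7c-2. At 16 bases 5 members shared a stretch with another microRNA gene, and at 20 bases 0 did. Reads that matched several genomic positions were given to no gene, so short or trimmed reads of these forms can be missing. How many were let-7 reads was not analysed here.

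The libraries held 4111167 and 3189903 counts on the strand of the gene, 36.6% and 36.4% of their reads. Reads with several positions made up 39.1% and 41.4%. Of the genes, 406 had at least 10 counts in each library and are called detected. The labelled tissue was checked against marker microRNAs. The neuron list (8 of 12 detected) held 4.82 and 5.63% of the counts, and endothelial Mir126a 1.04 and 1.32%. The lists for oligodendrocytes (3 of 3 detected), smooth muscle and pericytes (2 of 2) and microglia and leukocytes (4 of 4) held 0.0970 to 0.522%. The erythroid list (2 of 2 detected) held 0.00516 and 0.00862%. The list for liver, muscle and pancreas (3 of 7 detected) held 0.0116 and 0.0161%. Its detected genes were Mir122 (liver), Mir206 (muscle) and Mir375 (pancreas). Its others, Mir1a-1, Mir1a-2, Mir133a-1 and Mir133a-2, had 0 counts. By their symbols, these undetected genes are numbered copies of miR-1a and miR-133a. A read that fits several copies is left out of every gene, so 0 counts here cannot tell absence from lost reads. Other marker genes with numbered copies may lose reads likewise, and shares of different lists are not directly comparable.

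Together the members took up 25.1% of the counts in replicate 1 (1033903 counts) and 25.9% in replicate 2 (827041 counts), or 25.5% ± 0.550 (SD, n = 2). All 6 were detected. In both libraries 4 of them, Mirlet7g, Mirlet7i, Mirlet7b and Mirlet7d, were among the 8 microRNA genes with the most counts. Reads with several positions are in no gene's count. Shares and ranks therefore describe counts, and genes of mature forms with several hairpins can rank too low. Levels are given in CPM, counts per 1000000 counts in genes. A small RNA read spans a whole mature form, and the 5p forms have the same length of 22 bases, so CPM was compared between members without division by gene length unless stated. Whether different sequences were turned into reads equally well was not measured. Steps between members are therefore steps in counts, and the SD between the libraries does not cover this.

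Mirlet7g (ENSMUSG00000065440.1; mm10 chr9:106178840-106178927, plus strand, in an intron of Wdr82, which encodes a WD-repeat protein of histone methyltransferase complexes) was the member with the most counts. It had 293275 counts in replicate 1 and 245740 in replicate 2, or 71336 and 77037 CPM, and ranked 2 among all genes in both libraries. Its level was 74186.5 ± 4031 CPM (SD, n = 2).

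Mirlet7i (ENSMUSG00000065406.3; chr10:122985640-122985724, minus strand, in an exon of the transcribed pseudogene D630033A02Rik) followed with 283984 and 231301 counts, or 69076 and 72510 CPM. It ranked 3 in both libraries. Mirlet7g exceeded Mirlet7i in each library, by a ratio of counts of 1.033 in replicate 1, with an exact 95% interval of 1.027 to 1.038, and of 1.062 in replicate 2, with one of 1.056 to 1.068. Their ranges over the 2 libraries overlapped, so the difference in CPM was not larger than the spread between the libraries. That comparison ignores that both genes were counted in the same libraries. Within libraries the ratio was 1.05 ± 0.0210 (SD, n = 2). Per base of the annotated gene, 88 bases for Mirlet7g and 85 for Mirlet7i, their order turned round in replicate 1, at 810.6 against 812.7 CPM per base.

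Mirlet7b (ENSMUSG00000065564.1; chr15:85707319-85707403, plus strand, within an exon of Lncppara, a non-coding transcript) is known to favour differentiation of neural stem cells. It had 221274 and 171210 counts, or 53823 and 53673 CPM, and ranked 4 in both libraries. The libraries differed little here, and both lay below every value of Mirlet7i: the ratio of Mirlet7i to Mirlet7b was 1.32 ± 0.0478 (SD, n = 2).

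Mirlet7d (ENSMUSG00000065453.1; chr13:48536012-48536114, minus strand, in an exon of the lincRNA 6720427I07Rik) had 123490 and 90553 counts, or 30038 and 28387 CPM. It ranked 8 in both libraries, and Mirlet7b stood 1.84 ± 0.0699 times as high (SD, n = 2). Mirlet7e (ENSMUSG00000105758.1; chr17:17830352-17830444, plus strand, in an intron of Spaca6, a gene needed for sperm-egg fusion) had 93426 and 74041 counts, or 22725 and 23211 CPM. It ranked 11 in both libraries. Mirlet7d and Mirlet7e did not overlap, and their ratio was 1.32 in replicate 1 and 1.22 in replicate 2.

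Mir98 (ENSMUSG00000065536.2; chrX:151913214-151913321, plus strand, in an intron of Huwe1, which encodes a ubiquitin ligase) stood apart from the other five. It had 18454 and 14196 counts, or 4489 and 4450 CPM, at ranks 45 and 42. Mirlet7e was 5.14 ± 0.108 times as high (SD, n = 2), the widest step between neighbours in the order, and Mirlet7g 16.6 ± 1.00 times.

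The order Mirlet7g, Mirlet7i, Mirlet7b, Mirlet7d, Mirlet7e, Mir98 was the same in both libraries. Of the 5 pairs of neighbours in this order, 4 had ranges that did not overlap, the exception being Mirlet7g and Mirlet7i. As a share of the members' own counts, which does not depend on the library total, Mirlet7g held 28.4 and 29.7%, Mirlet7i 27.5 and 28.0%, Mirlet7b 21.4 and 20.7%, Mirlet7d 11.9 and 10.9%, Mirlet7e 9.04 and 8.95%, and Mir98 1.78 and 1.72%. The composition of the group thus moved by at most 1.35 percentage points between the libraries, the move of Mirlet7g.

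**Figure D1:**
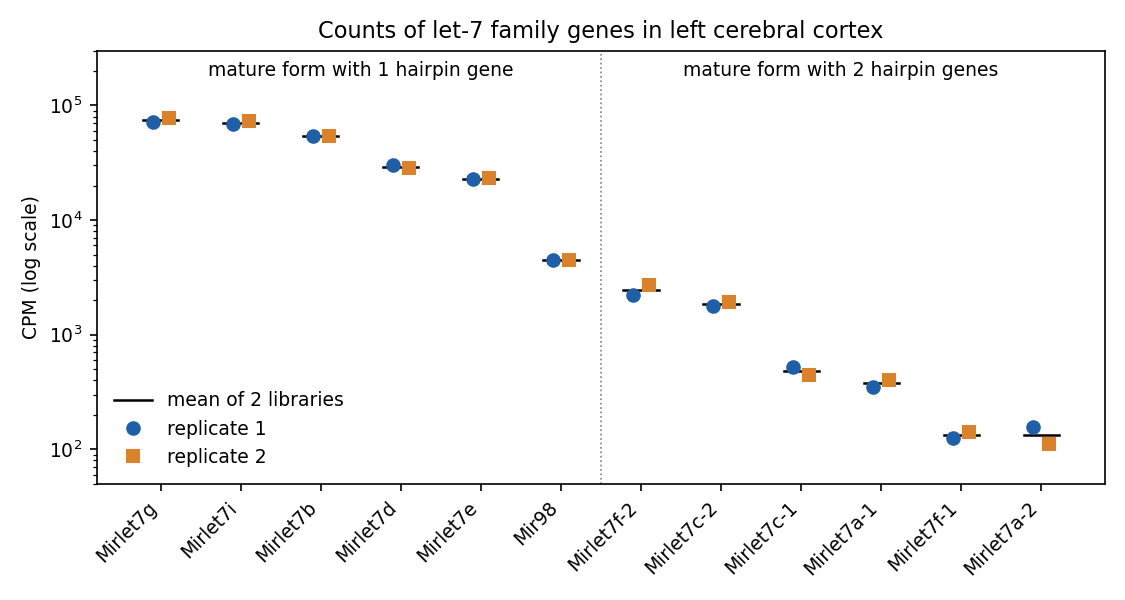
CPM on a log scale of each let-7 gene in replicate 1 (circles) and replicate 2 (squares), with the mean of both as a line. The genes left of the dotted line have a mature form with 1 hairpin gene and span 4450 to 77037 CPM, and those to the right, whose mature form has 2, lie between 111 and 2728 CPM.

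The other 6 let-7 genes, whose 5p form has 2 hairpin genes, had 512 to 9035 counts in replicate 1 and 354 to 8703 in replicate 2, and all were detected. The highest, Mirlet7f-2, stood at 2198 and 2728 CPM, and the lowest value of any single-gene member, Mir98 in replicate 2, was 1.63 times its highest value. Thus the ranges of these groups did not overlap. Of the counts over the 12 let-7 genes, the 6 single-gene members held 98.01% in replicate 1, with an exact 95% interval of 97.98 to 98.04%, and 97.82% in replicate 2, with one of 97.79 to 97.85%. This share describes the counts and not the abundance of the mature forms. A read of a whole let-7a, let-7c or let-7f 5p form matches 2 hairpins, and such reads were given to no gene. The 3p arm of Mirlet7a-1 is also found in Mirlet7c-2, whereas the 3p arms of Mirlet7a-2, Mirlet7c-1, Mirlet7f-1 and Mirlet7f-2 occurred in 1 hairpin each.

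For most members a neighbouring microRNA gene lies close by on the same strand, and counts within such a pair or trio were far from equal. Mirlet7b lies 622 bases from Mirlet7c-2 and had 30.5 times its counts in replicate 1 and 27.6 times in replicate 2. Mirlet7d lies 1715 bases from Mirlet7f-1 and 2065 bases from Mirlet7a-1. It had 85.5 and 70.0 times the counts of Mirlet7a-1, and 241 and 199 times those of Mirlet7f-1. These 3 partners have 5p forms with 2 hairpin genes, so the ratios can be too high. Mir98 lies 786 bases from Mirlet7f-2, another such partner, and had 2.04 and 1.63 times its counts.

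The partners of Mirlet7e, Mir99b and Mir125a, belong to other families, miR-99/100 and miR-125, that are often found beside let-7 genes in animals. Mirlet7e had 1.81 and 2.13 times the counts of Mir125a, which lies 368 bases away. Against Mir99b, 95 bases away, the ratio was 3.40 in replicate 1 and 5.02 in replicate 2, or 4.21 ± 1.15 (SD, n = 2). This was the least stable of the 6 ratios between the libraries, with a change of 0.56 on the log2 scale. With library totals the move lay mostly with Mir99b, whose level was 6687 CPM in replicate 1 and 4619 in replicate 2. The split depends on the scaling of the libraries. Over the scalings tried, the log2 ratio of replicate 2 over replicate 1 was -0.56 to -0.39 for Mir99b. For Mirlet7e it was 0.0012 to 0.18. Mirlet7g and Mirlet7i had no other microRNA gene within 10 kb.

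**Figure D2:**
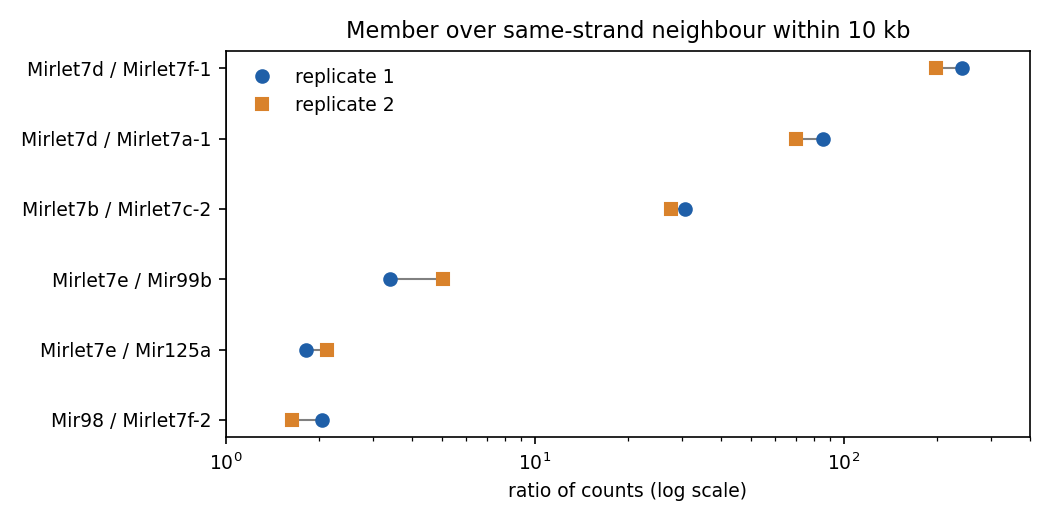
Ratio of the counts of a member to those of each microRNA gene within 10 kb on the same strand, on a log scale, in replicate 1 (circles) and replicate 2 (squares). The ratios run from 1.63 for Mir98 over Mirlet7f-2 to 241 for Mirlet7d over Mirlet7f-1, and each lies above 1 in both libraries.

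The counts that ignore strand gave the same values for 4 members and nearly the same for Mirlet7b, but none for Mirlet7e. Mirlet7e had 0 counts in both libraries when strand was ignored, against 93426 and 74041 on its own strand. On the opposite strand GENCODE M21 annotates a microRNA gene, Gm25927 (ENSMUSG00000092799.1; chr17:17830343-17830459, minus strand), which covers the whole Mirlet7e hairpin. Gm25927 had 0 counts on its own strand in both libraries, which allows at most 0.730 CPM in replicate 1 and 0.940 in replicate 2, counting error only. The reads of the Mirlet7e hairpin made up 33.0% of the 282884 reads listed as ambiguous without strand in replicate 1 and 33.9% of 218334 in replicate 2. No other microRNA gene lost as many counts in this way. The hairpin is shown because both of its arms lie within the overlap, with the arms in capitals (GENCODE M21, mm10, as RNA).
Mirlet7e: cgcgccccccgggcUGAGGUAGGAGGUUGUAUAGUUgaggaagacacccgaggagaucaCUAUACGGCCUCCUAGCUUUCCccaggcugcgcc

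With strand ignored the 6 members held 24.6 and 25.3% of the counts, and Mirlet7e fell from the place above Mir98 to the last in their order. Mirlet7f-1 (512 and 455 counts), a neighbour of Mirlet7d, also had 0 counts without strand, with Gm24111 annotated opposite to it. No microRNA gene is annotated opposite to the remaining members. Mirlet7d, Mirlet7g, Mirlet7i and Mir98 had 0 counts on the opposite strand in both libraries, and Mirlet7b had 6 and 2.

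**Figure D3:**
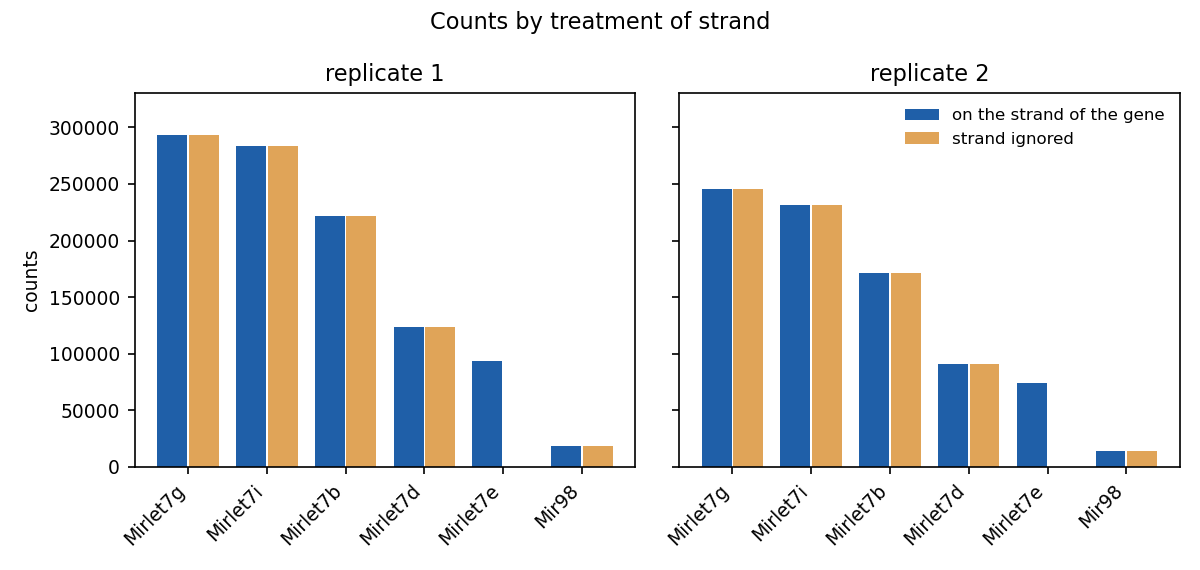
Counts of each member in replicate 1 (left) and replicate 2 (right), on the strand of the gene (blue) and with strand ignored (orange). The bars of a gene are level for every member except Mirlet7e, which has 93426 and 74041 counts on its strand and 0 when strand is ignored.

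Between the libraries, the members differed by small amounts. For every detected gene, an exact binomial test (two-sided, Benjamini-Hochberg adjusted over 406 genes) asked whether its counts were divided between the libraries as the totals were. This compares 2 libraries with read sampling only and says nothing of conditions. Of all detected genes 58.1% passed at an adjusted p under 0.05, 23.4% higher and 34.7% lower in replicate 2. Of the 6 members 4 passed, a share near that background. The background depends on depth: among the 291 genes with at least 50 counts in each library 74.6% passed. Mirlet7g was 1.08-fold (adjusted p = 2.57e-172, exact test), Mirlet7i 1.05-fold and Mirlet7e 1.02-fold (adjusted p = 3.92e-05, exact test) higher in replicate 2. With Mir139, the gene with the most counts, left out of the total, Mirlet7e no longer passed (log2 ratio 0.0012, adjusted p = 0.919, exact test). Mirlet7d passed in the other direction, with a log2 ratio of -0.08, which was -0.0022 with TMM scaling and 0.00098 with DESeq2 size factors, and it then did not pass. Mirlet7b (log2 ratio -0.0040) and Mir98 (-0.01) did not pass, but passed with TMM scaling as higher in replicate 2, at 0.08 and 0.07. With Mir139 left out both passed as lower (log2 ratios -0.03 and -0.04, adjusted p = 2.16e-12 and 0.0173, exact test), and with the total of all reads Mirlet7b did (log2 ratio -0.01, adjusted p = 0.0163, exact test).

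With depths of 14196 counts or more per member, the test passes differences of a few percent, so the sizes are the more useful measure. TMM and DESeq2 factors from the 406 detected genes each moved every log2 ratio by 0.08, and factors from all 2202 genes moved it by 0.15 with TMM and 0.12 with DESeq2. These shifts are larger than the median absolute log2 ratio of the members, 0.05, so which members were higher or lower in replicate 2 depends on the scaling. With TMM from the detected genes 5 members passed, all higher in replicate 2, where 54.4% of detected genes passed, 27.3% higher and 27.1% lower. With TMM factors from all genes 6 passed, all higher in replicate 2, where 53.9% of detected genes passed, 32.3% higher and 21.7% lower. Differences between members do not depend on it: Mirlet7g moved by 0.19 on the log2 scale, or 1.14-fold, against Mirlet7d. With library totals the median absolute log2 ratio over all detected genes was 0.30. Only 291 of the 406 had at least 50 counts in each library, and ratios of genes with few counts carry more counting error. The medians and ranks given here thus do not compare the members with genes of like depth. Of the 406, again with library totals, 1 had a smaller absolute log2 ratio than Mirlet7b, 3 than Mir98, 18 than Mirlet7e, 47 than Mirlet7i, 55 than Mirlet7d and 79 than Mirlet7g. These ranks also move with the scaling: with TMM from the detected genes 63 had a smaller one than Mirlet7b, 62 than Mir98, 84 than Mirlet7e, 120 than Mirlet7i, 2 than Mirlet7d and 147 than Mirlet7g. The median of the members was then 0.09 and that of all detected genes 0.29, and with TMM from all genes 0.16 and 0.31. The 6 genes of the forms with 2 copies had a median of 0.21 with library totals, 0.28 with TMM from the detected genes and 0.34 with TMM from all genes.

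**Figure D4:**
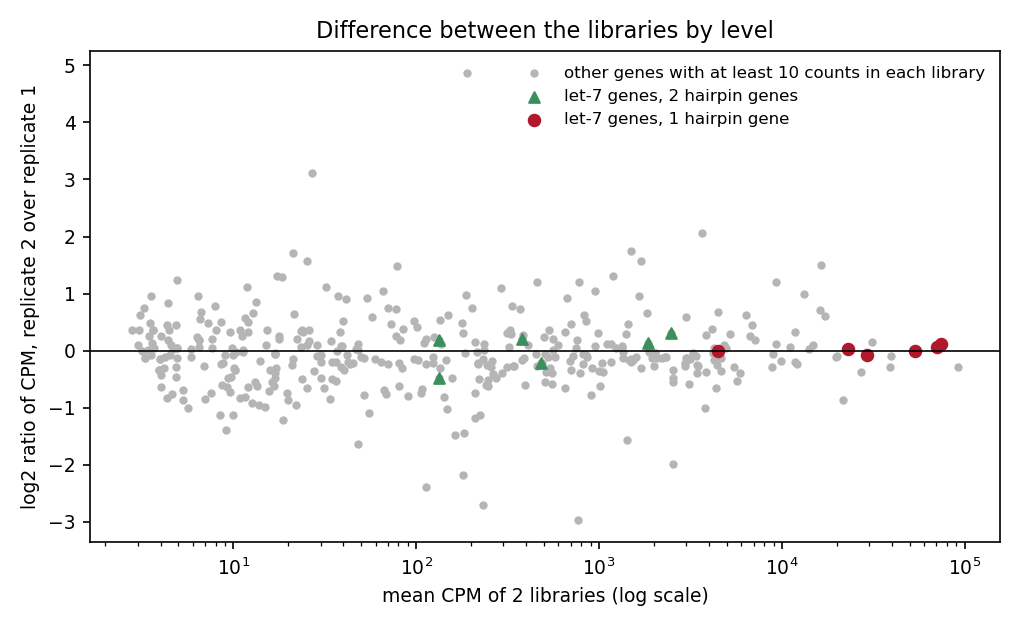
Log2 ratio of CPM, replicate 2 over replicate 1, against the mean CPM on a log scale, for the 406 detected genes. The members (red circles) lie between -0.08 and 0.11, and the other let-7 genes (green triangles) between -0.48 and 0.31, among all other detected genes (grey).

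The stretches between the arms of 5 members are shown because LIN28 proteins act there. They were cut from the hairpins by the positions of the RefSeq arms, with GGAG in capitals where present.
Mirlet7b: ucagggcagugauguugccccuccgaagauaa
Mirlet7d: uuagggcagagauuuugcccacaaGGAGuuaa
Mirlet7e: gaggaagacacccgaGGAGauca
Mirlet7g: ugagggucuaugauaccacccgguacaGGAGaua
Mirlet7i: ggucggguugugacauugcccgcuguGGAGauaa
The motif GGAG, searched on the RNA strand only, was present once in Mirlet7d, Mirlet7e, Mirlet7g and Mirlet7i and not in Mirlet7b. Where present it lay within the last bases before the 3p arm. Of the 644 hairpins in the RefSeq table with 2 arms, 52 (8.07%) held GGAG between the arms; these stretches differ in length. Among the 6 let-7 hairpins of the forms with 2 copies 5 held it, with Mirlet7c-2 the exception. These 4 members held 76.8% of the members' counts in replicate 1 and 77.6% in replicate 2.

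Genes outside the family with levels most like each member were found by the distance of log2(CPM + 1) over the 2 libraries, which describes level only. Mir139 was nearest to both Mirlet7g and Mirlet7i, at 101560 and 83088 CPM. Mir127 was nearest to Mirlet7b (40575 and 37949 CPM), Mir487b to Mirlet7d (29670 and 32818 CPM), Mir433 to Mirlet7e (20495 and 19332 CPM) and Mir181b-2 to Mir98 (4201 and 4352 CPM). No gene outside the family lay between the values of Mirlet7g and those of Mirlet7b in either library, as Mir139 ranked above all 3 let-7 genes and these ranked 2, 3 and 4.

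Among 11 genes fixed as related to let-7 by seed, by clustering or as relatives of clustered genes (Mir10a and Mir10b), 8 were detected. By the exact test with library totals replicate 2 had more of 4 genes and less of 3, while Mir7j did not pass, beside 58.1% of all detected genes that passed, 23.4% higher and 34.7% lower. The sign of 7 of the 8 was the same under every scaling tried, and Mir125b-1 changed sign with TMM factors from all genes (0.0043, against -0.17 with Mir139 left out of the total). Mir99a, which lies beside Mirlet7c-1, and Mir100, which lies near Mirlet7a-2, were 1.52-fold and 1.61-fold higher in replicate 2 (13566 and 20648 CPM, and 3426 and 5503 CPM). Mir99b was lower, with a log2 ratio of -0.53, and so was Mir125a (-0.20). With library totals the log2 ratios of all 8 exceeded in size those of the 6 members, which reached 0.11. The largest was that of Mir10b (0.96, at 105 and 158 counts), before Mir100 (0.68) and Mir99a (0.61). The members reached 0.19 with TMM from the detected genes and 0.26 with TMM from all genes. Mir125a and Mir125b-1 did not exceed these values, and the other detected related genes did.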

How the data were processed

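The deposited tables hold raw read counts per microRNA gene, 1 table per library, with mm10 and GENCODE M21 named in the deposited descriptions. For the authors' aligner and counter, names and versions were not given in the sources used here. Each table has 3 columns of counts (strand ignored, strand of the gene, opposite strand) and 4 leading rows that name no gene. These rows (unmapped, several positions, no gene, ambiguous) held 63.4% and 63.6% of the reads and stayed out of the totals. All 2202 IDs matched GENCODE M21. Hairpins came from GENCODE transcripts and mature forms from RefSeq, whose let-7 hairpins checked matched in sequence and position.

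CPM used the sum over genes on the gene's strand. Intervals are exact Clopper-Pearson 95% intervals. They and the 3-count limit for a count of 0 cover counting error only: PCR copies of a molecule count as separate reads. The exact binomial test (scipy 1.17.1) ran over genes with at least 10 counts per library. It was tried on simulated counts that held read sampling only. Such counts cannot show how the test behaves when libraries differ by more than read sampling. TMM (edgeR 4.0.16) and DESeq2 1.42.0 size factors were alternatives. They were first computed from all 2202 genes. After those results were seen, factors from the 406 detected genes, which moved the ratios less and matched earlier results of these data, were taken for these alternatives, and the factors from all genes are given as further ones. The stretch between the arms of Mir98 is not reported here. Named genes are the members, the other let-7 genes, fixed related genes, microRNA genes within 10 kb, the nearest genes by level and the cell type markers. Mir135a-1 is named from the 50 kb alternative. Members and lists were chosen with earlier results of these data known.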

Additional observations from a re-analysis of the deposited data

Results flagged for a closer look

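Mirlet7b had 6 counts on the strand opposite to the gene in replicate 1, where no microRNA gene is annotated, which is more than 3 counts, the upper limit on the level that a count of 0 allows. In replicate 2 there were 2. These are 1.46 and 0.627 CPM, or 0.00271 and 0.00117% of the reads over the hairpin on either strand.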

How the results depend on the processing

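The members' share of counts, 25.5%, was 25.0% with strand ignored, 9.33% of all reads, 28.1% with Mir139 left out of the total and 19.6% with Mirlet7g left out of list and total. Their share of let-7 counts, 97.9%, was 97.8% with strand ignored and 97.1% without Mirlet7g. Leaving out a replicate gave 25.1 to 25.9% and 97.8 to 98.0%, which with 2 libraries cannot exceed the spread. Mirlet7e, at 22968 CPM, had 0 CPM with strand ignored. The members that share a stretch with another microRNA gene numbered 3 at 18 bases, 5 at 16 and 0 at 20. The log2 ratio of Mirlet7b, -0.0040, was 0.0753 with TMM and 0.0785 with DESeq2 size factors, that of Mir98, -0.0124, was 0.0670 and 0.0701, and that of Mirlet7d, -0.0815, was -0.0022 and 0.000983. Factors from all 2202 genes are a setting whose place was chosen after seeing the data. With them these log2 ratios were 0.141, 0.133 and 0.0639 with TMM and 0.119, 0.111 and 0.0417 with DESeq2. With either, 6 of 6 members passed as higher in replicate 2, beside 53.9% of the 406 detected genes that passed in either direction. Each of these scalings moves the log2 ratio of every gene by the same amount. With no count minimum 242 of 781 genes (31.0%) passed the exact test, and at a minimum of 50 counts 217 of 291 (74.6%). The number of members past the test was 3 to 6 over all alternatives, against 4, while 31.0 to 74.6% of the tested genes passed. The 3 came with strand ignored, where Mirlet7e had 0 counts and was not tested. There 216 of 381 genes (56.7%) passed. Widening the window to 50 kb added Mir135a-1 beside Mirlet7g. No paired analysis was possible because there is 1 group. Counts are limited by reads that matched several positions, which were given to no gene.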

Other observations

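Mir7j, Mir7k and Mir202, fixed as related to let-7 by seed, had few counts. The microRNA miR-1961 also carries the seed GAGGUAG but was not on this list, and its counts were not examined. Mir7j, whose mature form let-7j carries the seed GAGGUAU, had 85 counts in replicate 1 and 84 in replicate 2, or 20.7 and 26.3 CPM, and did not pass the exact test between the libraries. Mir7k, whose form let-7k carries the seed GAGGUAG, had 1 and 0 counts. Mir202, whose 3p form carries GAGGUAU and which is known from gonads, had 2 and 1. Mir10b and Mir10a, relatives of miR-99 and miR-100 that lie in Hox clusters, had 105 and 158 counts and 7 and 22 counts.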
